A study of Mus musculus with 48 samples.

Results

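The genes described here are those that carry glucose through glycolysis to lactate and into and out of glycogen, 32 genes of the 47643 in the files, named from textbook pathway knowledge and matched by gene symbol. They span glucose entry, each step of glycolysis with its main isozymes, lactate dehydrogenase, the monocarboxylate transporters that export lactate, glycogen phosphorylase, the enzymes of glycogen synthesis and the subunits that bring protein phosphatase 1 to glycogen. The study used translating ribosome affinity purification (TRAP), in which an antibody to green fluorescent protein (GFP) pulls down tagged ribosomes with the RNA bound to them, followed by RNA sequencing. All mice were of the Tg(Aldh1l1-eGFP/Rpl10a) JD130Htz line, which makes the ribosomal protein L10a fused to eGFP under Aldh1l1 regulatory sequences, and all RNA came from the dorsal hippocampus. Of 3 animals, each gave a whole-astrocyte sample (Astro) and a sample of perisynaptic astrocytic processes (PAP), the fine branches that lie against synapses, and each sample was deposited as 8 technical replicates that were summed here. Both groups carry the transgene and both are GFP pulldowns, so any cell in which those regulatory sequences are active contributes, and age and sex are not given in the labels used here.

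Glycolysis splits glucose into pyruvate, and lactate dehydrogenase interconverts pyruvate and lactate, which leaves cells through monocarboxylate transporters. In the brain, glycogen is held mainly in astrocytes, where it is built from UDP-glucose and broken down by glycogen phosphorylase. Astrocytes are known for a strongly glycolytic metabolism, and lactate made by them is one of the fuels discussed for neighbouring neurons.

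The 3 Astro libraries held 18707844 to 20293538 counts and the 3 PAP libraries 1829962 to 2980984, so a count of 3, the floor used here, stood for 0.152 to 0.176 CPM in Astro and 0.991 to 1.55 CPM in PAP. CPM are counts per 1000000, scaled here and below by TMM factors, which adjust for the makeup of each library. The spread between animals was also wider in PAP, with a biological coefficient of variation of 1.58 against 0.34 in Astro, each fitted within its compartment. A list of 15 astrocyte markers, which includes the member Aldoc, summed to 30657 ± 4849 CPM in Astro (SD, n = 3) and to 4143, 9329 and 15892 CPM in the PAP libraries of animals 1 to 3. Of these 15 markers 6 fell (none with the animal as a block in the fit), beside 15.4% of all genes tested, and the PAP libraries lay below every Astro library for 14, beside 35.1% of all genes tested. Transcripts of plasma cells, which make antibodies, moved the other way, with a summed level of 46.4 to 76.2 CPM in Astro and 7257, 5012 and 3326 CPM in PAP, and 5 of its 8 genes rose, 4 of them also with the block (5.92% of all genes rose, and 0.91% were called with the block), although Ighm and Cd79a of that list had no count in PAP. Neuron markers summed to 1036 ± 325 CPM in Astro and 897 ± 453 CPM in PAP and oligodendrocyte markers to 848 ± 41 and 788 ± 220 CPM (SD, n = 3), so both lists overlapped between the groups. Among the 12 neuron markers Syt1 rose (67.1 to 113 CPM in Astro, 177 to 277 CPM in PAP) and Snap25 fell (395 to 662 CPM in Astro, 44.4 to 167 CPM in PAP), neither with the block. Microglial markers summed to 43.1 to 94.5 CPM in Astro and 31.4 to 60.7 CPM in PAP. Of these 8 genes Cx3cr1, P2ry12 and Tmem119 fell (none with the block) and had no count in PAP, while C1qa, C1qb and C1qc had positive log2 fold changes of 0.71 to 1.14 that did not pass. Endothelial and mural markers summed to under 50 CPM in every library, and erythrocyte genes summed to 456 CPM in the PAP library of animal 1 against 2.6 to 65.5 in the other PAP libraries. The part of these differences, and of the gap in depth, in the results below was not tested. In bulk libraries of this kind, fewer astrocyte processes in a sample and less RNA per process cannot be told apart.

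Most of the pathway had lower levels in PAP than in whole astrocytes, as most genes had: the log2 fold change was below 0 for 26 of the 31 members tested and for 8904 of the 14618 genes tested. Of these 31 members, the edgeR quasi-likelihood test called 6 lower and 1 higher in PAP at an adjusted p under 0.05, beside 15.4% and 5.92% of all genes tested. The members that fell were the aldolases Aldoa and Aldoc, the enolase Eno1, the lactate dehydrogenase subunit Ldhb, the brain glycogen phosphorylase Pygb and the UDP-glucose maker Ugp2. The member that rose was Hk2, the second hexokinase. Over 16 alternative fits Ldhb passed in 12, Pygb and Ugp2 in 11 each, Aldoa and Aldoc in 9 each and Eno1 in 8. Hk2 passed in 6 of the 15 alternatives that tested it. With the animal as a block none of the 31 members was called, beside 0.91% of all genes. Leaving out any 1 of the 3 Astro libraries also left none, beside 115 of 12938, 128 of 12893 and 140 of 12851 genes. Leaving out the PAP library of animal 1, 2 or 3 called 10 of 32, 8 of 31 and 10 of 32 members tested. Beside them stood 4157 of 16390, 4037 of 16431 and 4586 of 16523 genes. In the fit without a block the median log2 fold change was -1.01 over the 31 members and -0.53 over all genes, and with the block it was -1.54 and -1.63. The gap between the medians was smaller without any 1 of the PAP libraries: without that of animal 1 they were -0.90 and -0.88, without that of animal 2 -0.99 and -0.86, and without that of animal 3 -1.03 and -0.95.

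For 17 of the 31 tested members every PAP library lay below every Astro library, beside 35.1% of all genes tested. The reverse held for Hk2 and Pkm, beside 10.9% of all genes. The 32 members summed to 17724 ± 1803 CPM in Astro and 7239 ± 1293 CPM in PAP (SD, n = 3). Without Aldoc, the most abundant member, the sums were 10402 ± 1027 and 5477 ± 322. The members took 1.77%, 1.43% and 1.84% of all counts in the Astro libraries and 0.620%, 0.808% and 0.841% in the PAP libraries, with no overlap between the groups.

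**Figure D1:**
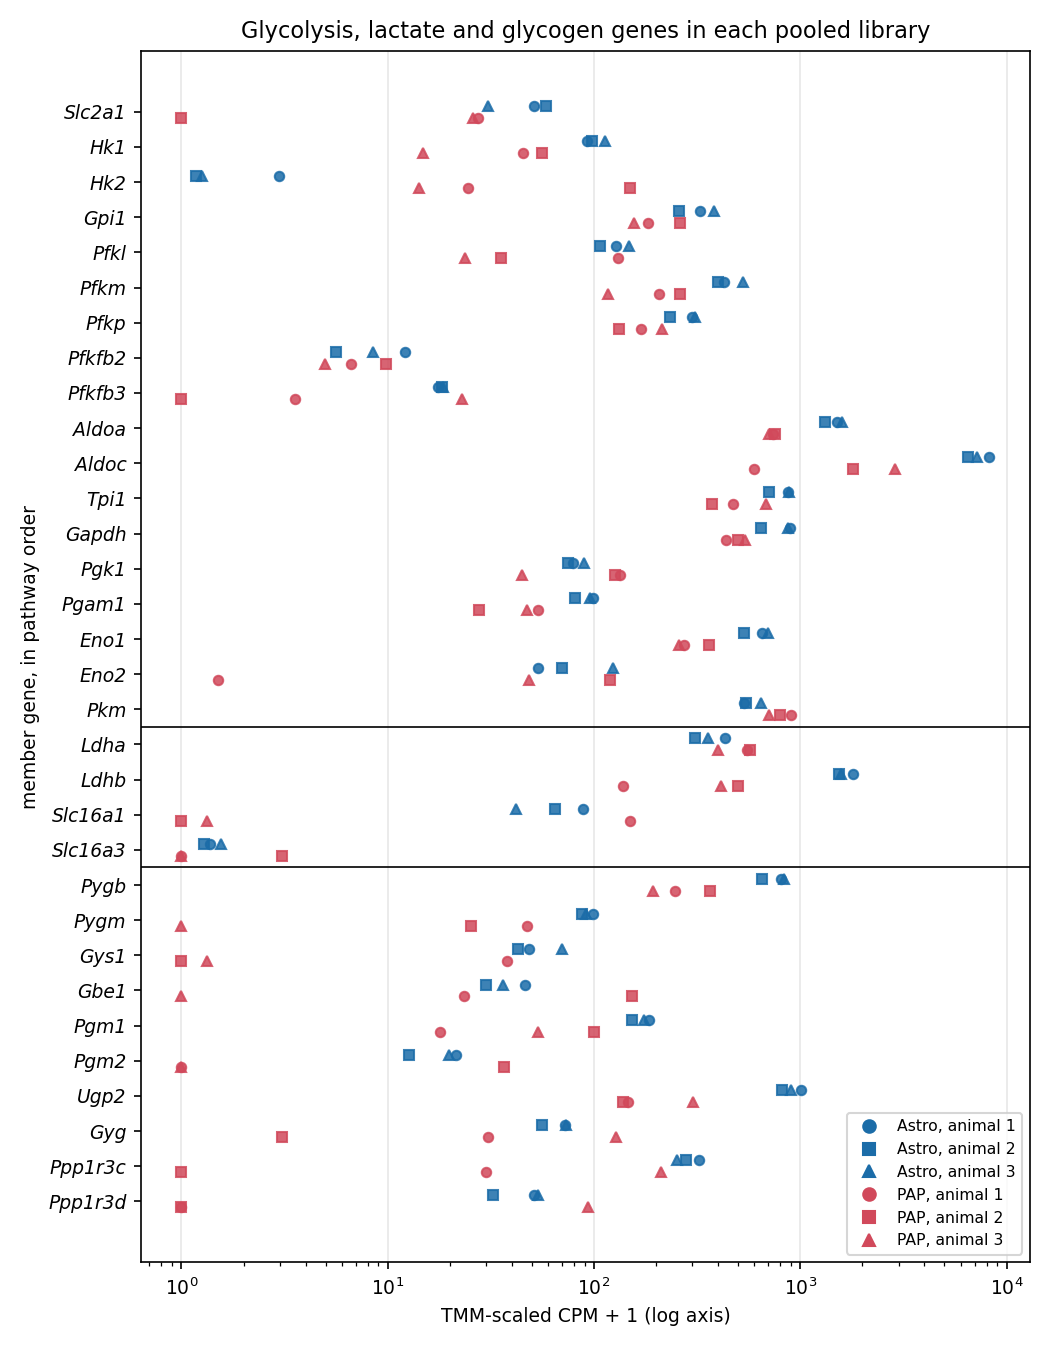
TMM-scaled CPM plus 1 of all 32 members in each pooled library, on a log axis, with Astro in blue, PAP in red and 1 symbol per animal; lines separate glycolysis, lactate and glycogen genes. The blue points of a gene lie close together, while the red points spread widely, and 10 of the 31 tested members sit at or under 3 counts in at least 1 PAP library.

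The members differed in how steadily they were measured in PAP. The coefficient of variation over the 3 animals had a median of 14.4% in Astro and 56.6% in PAP over the tested members, beside 22.1% and 97.0% over all genes tested. Of the 18 tested glycolysis members 3 were at or under 3 counts in a PAP library, and of the 10 glycogen members 6 were, beside 60.4% of all genes tested. For such genes the fold change rests on 1 or 2 of the PAP libraries, as the standard errors below show.

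Glucose enters through Slc2a1 (GLUT1), the general glucose transporter. It held 50.02, 57.2 and 29.5 CPM in the Astro libraries of animals 1 to 3 and 26.5, 0 and 24.8 CPM in PAP. The PAP libraries were lower throughout, and the library of animal 2 had no read, but the log2 fold change of -1.41 ± 1.50 (SE) did not pass the test (edgeR adjusted p = 0.622).

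Of the 2 forms of hexokinase, which traps glucose by phosphorylation, Hk2 rose and Hk1 did not pass. The main brain form Hk1 held 91.9, 97.1 and 112 CPM in Astro and 44.4, 55.2 and 13.9 CPM in PAP, and its log2 fold change of -1.41 ± 0.64 did not pass (edgeR adjusted p = 0.197). Hk2, the form of muscle and of growing cells (chr6:82725025-82774454 on GRCm38), had 37, 3 and 5 counts in Astro and 46, 287 and 40 counts in PAP. Those counts came to 1.99, 0.18 and 0.25 CPM in Astro and 23.5, 148 and 13.2 CPM in PAP. Every PAP library lay above every Astro library, but animal 2 held most of the PAP signal. The log2 fold change was 6.23 ± 1.68 with an edgeR adjusted p of 0.0433, and 0.206 with the block. Without PAP animal 2 it was 4.42 with an adjusted p of 0.0625. Per exonic length Hk2 made up 3.00%, 0.26% and 0.32% of the hexokinase pair in Astro and 43.0%, 79.3% and 57.6% in PAP, with no overlap between the groups. With the length of the longest transcript in place of all exons, the PAP shares were 29.09%, 67.55% and 42.5%.

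The next enzyme, glucose phosphate isomerase (Gpi1), held 326, 256 and 381 CPM in Astro and 183, 261 and 155 CPM in PAP, so that the groups overlapped (log2 fold change -0.69 ± 0.33, edgeR adjusted p = 0.224). A stretch of its transcript matches 4 other genes at 95% identity or more over at least 100 bases, and their counts equal 43.3% of those of Gpi1 in Astro and 26.2% in PAP, the largest such share of any member. Phosphofructokinase commits sugar to glycolysis, and its most abundant form per length was the muscle form Pfkm, with 427, 399 and 529 CPM in Astro and 206, 261 and 116 CPM in PAP. All PAP libraries were lower, with a log2 fold change of -1.22 ± 0.37 and an edgeR adjusted p of 0.0632. It passed without the PAP library of animal 2 (edgeR adjusted p = 0.0404), without that of animal 3 (0.0428) and with technical replicates 1 to 4 alone (0.0457), and DESeq2 called it lower (adjusted p = 0.00864). Pfkm made up 77.2% ± 1.38 of the 3 phosphofructokinases per length in Astro and 71.4% ± 10.9 in PAP (SD, n = 3), which overlapped, so this step kept its leading isozyme. The other forms, Pfkl of liver type and Pfkp of platelet type, had log2 fold changes of -1.02 ± 0.73 and -0.71 ± 0.32 and did not pass (edgeR adjusted p = 0.433 and 0.191), although Pfkl passed without the PAP library of animal 1 (0.0276). Pfkfb3 and Pfkfb2, which make the fructose bisphosphate that activates phosphofructokinase, were scarce. Pfkfb3 held 16.5, 17.3 and 17.6 CPM in Astro and 2.55, 0 and 21.8 CPM in PAP, so its PAP libraries ranged from no read to above the Astro level. Pfkfb2 was under 12 CPM in every library and the groups overlapped; other genes share 19.5% of its exonic bases, the most of any member, and strand was not marked.

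Aldolase, which cleaves the 6-carbon sugar, was the most abundant step among the members by mean level per exonic length in each compartment, and both forms fell. Aldoc, the brain form and a classical astrocyte marker (chr11:78322968-78327781), held 8254, 6522 and 7191 CPM in Astro and 594, 1808 and 2884 CPM in PAP. Even the highest PAP library was far below the lowest Astro library, and the PAP libraries differed among themselves as the summed astrocyte markers did, lowest in animal 1 and highest in animal 3. The log2 fold change was -2.06 ± 0.54, which is 4.16-fold lower (edgeR adjusted p = 0.0397, and 0.199 with the block). Aldoc was not called without the PAP library of animal 2, and its log2 fold change ran from -2.68 to -1.69 over 16 alternatives. Per length Aldoc ranked 11, 13 and 12 among all genes of the Astro libraries and 286, 92 and 54 in PAP.

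Aldoa, the form of muscle and most tissues (chr7:126795234-126800751), was among the steadiest members. It held 1509, 1322 and 1591 CPM in Astro and 737, 757 and 708 CPM in PAP, 2 narrow groups with a wide gap. Its log2 fold change was -1.01 ± 0.19, or 2.01-fold lower (edgeR adjusted p = 0.0208, and 0.206 with the block). Aldoc made up 83.0%, 81.5% and 80.1% of both aldolases per length in Astro and 41.8%, 68.0% and 78.4% in PAP. The share was lower in every PAP library, by a wide margin in animal 1 and a narrow one in animal 3.

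The middle steps had lower levels in PAP that did not pass the edgeR test with all libraries; DESeq2 called Gapdh lower (adjusted p = 0.00771). Triose phosphate isomerase (Tpi1), which interconverts the 3-carbon sugars, held 869, 705 and 878 CPM in Astro and 472, 372 and 685 CPM in PAP (log2 fold change -0.68 ± 0.29, edgeR adjusted p = 0.177). Gapdh, the step that makes NADH, held 889, 643 and 867 CPM in Astro and 435, 496 and 537 CPM in PAP (log2 fold change -0.71 ± 0.24, edgeR adjusted p = 0.0911). For both genes every PAP library was below every Astro library, and without the PAP library of animal 3 Tpi1 passed (log2 fold change -1.02, edgeR adjusted p = 0.0316). Gapdh has 77 genes in the annotation that match its transcript at 95% identity or more over at least 100 bases, 74 of them pseudogenes. These took counts equal to 3.7% of those of Gapdh in Astro and 15.2% in PAP, and how many reads of Gapdh itself were assigned to a copy or lost was not tested. Eno2, Tpi1 and Gapdh lie within 1 stretch of chromosome 6, at 124760053, 124810586 and 125161715.

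Phosphoglycerate kinase and pyruvate kinase, the steps that yield ATP, had higher means in PAP that did not pass. Pgk1 held 78.0, 73.8 and 88.7 CPM in Astro and 133, 126 and 43.6 CPM in PAP, where animals 1 and 2 were above and animal 3 below Astro (log2 fold change 0.33 ± 0.54, edgeR adjusted p = 0.764). Pkm, whose products include the M1 and M2 forms that gene counts do not separate, held 531, 545 and 642 CPM in Astro and 899, 796 and 705 CPM in PAP. The groups did not overlap and each animal was higher in PAP, but the log2 fold change of 0.48 ± 0.22 did not pass (edgeR adjusted p = 0.202, and 0.442 with the block). DESeq2's Wald test, tried as an alternative, called Pkm higher (adjusted p = 0.0122) and, of the members not called by edgeR, also called Gapdh, Pfkm, Pgam1 (0.0151) and Pfkp (0.0341) lower. Leaving out TMM scaling moved the median of all genes from -0.53 to -0.38 on the log2 scale, and Pkm, Ldha and Pgk1 kept a positive sign in all 16 alternatives.

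Between these kinases stand the mutase and the enolase. Pgam1, the mutase of brain, held 97.6, 79.9 and 94.98 CPM in Astro and 52.5, 26.8 and 46.3 CPM in PAP. Its PAP libraries were lower throughout (log2 fold change -1.12 ± 0.50, edgeR adjusted p = 0.197). Eno1, the general enolase (chr4:150236721-150248879), fell, with 651, 536 and 698 CPM in Astro and 273, 359 and 258 CPM in PAP. The groups were far apart, at a log2 fold change of -1.08 ± 0.26 or 2.12-fold lower (edgeR adjusted p = 0.0296, and 0.206 with the block). Near-identical genes, Eno1b among them, took counts equal to 0.53% of those of Eno1 in Astro and 7.1% in PAP. Eno2, the enolase of neurons, overlapped between groups, and its PAP counts of 1, 230 and 143 show how much the PAP libraries differed.

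**Figure D2:**
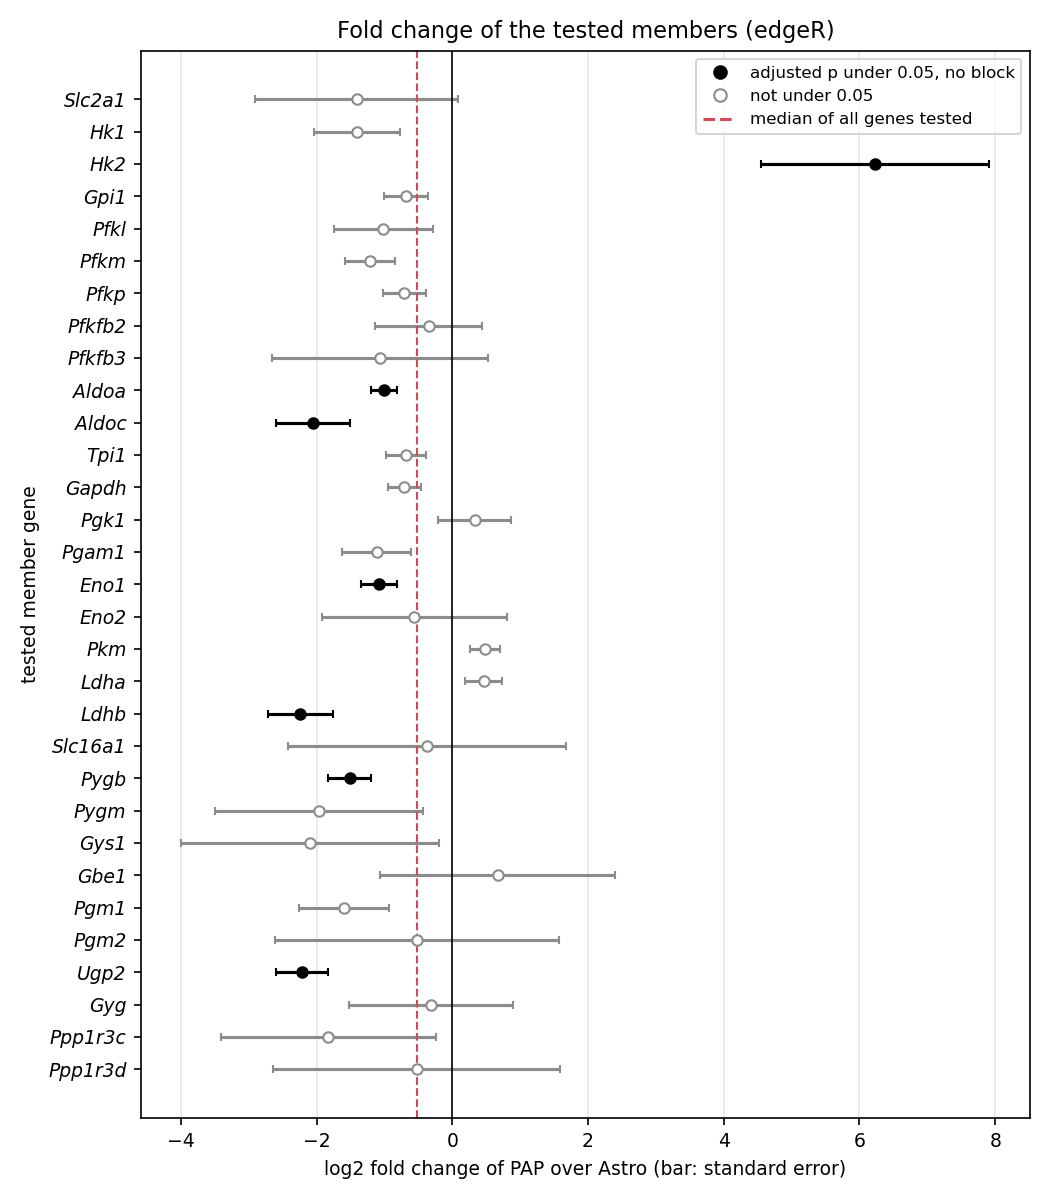
The log2 fold change of PAP over Astro with its standard error for the 31 tested members, in pathway order, with filled points for adjusted p under 0.05 without a block and a dashed line at the median of all genes tested, -0.53. Of the 31 points 26 lie below 0, and the widest bars belong to genes without reads in 1 or 2 PAP libraries, such as Slc16a1, Pgm2 and Ppp1r3d.

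Of the 2 subunits of lactate dehydrogenase, Ldhb fell and Ldha did not pass. Ldhb, whose subunit favours turning lactate into pyruvate (chr6:142490249-142507957), held 1806, 1547 and 1583 CPM in Astro and 137, 496 and 411 CPM in PAP. Each PAP library was several-fold below each Astro library, with a log2 fold change of -2.24 ± 0.48 or 4.73-fold lower (edgeR adjusted p = 0.0222, and 0.164 with the block). Ldha, whose subunit favours making lactate (chr7:46841475-46855627), held 430.4, 309 and 357 CPM in Astro and 549, 566 and 398 CPM in PAP. It was higher in PAP in each animal, but the groups overlapped and the log2 fold change of 0.47 ± 0.27 did not pass (edgeR adjusted p = 0.328).

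As a share of both subunits per exonic length, Ldha made up 10.1%, 8.66% and 9.66% in Astro and 65.5%, 35.1% and 31.4% in PAP. The shares did not overlap, and that of animal 1 in PAP, the library with the fewest Ldhb counts (269), was the highest. With 3 libraries against 3, an exact permutation test cannot give a p under 0.1, so the shares are given without a test. With the length of the longest transcript in place of all exons, the mean share was 13.7% in Astro and 53.4% in PAP, against 9.49% ± 0.76 and 44.0% ± 18.7 (SD, n = 3) with all exons. Animal 1 also had the lowest summed astrocyte markers and the highest plasma cell and erythrocyte sums of the PAP libraries, whose part in its Ldha share was not tested.

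The DNA before the start sites was compared as a description. It was not used to choose the genes, but a list of glycolysis genes is not independent of a motif known from such genes. ACGTG is a form of the core of the sites bound by hypoxia-inducible factors, which are known activators of glycolytic genes. It was searched on both strands (as ACGTG or CACGT) in the 250 bases before each RefSeq start on GRCm38.p6. The other form, GCGTG, was not searched, and it stands unmarked in the Ldhb window below. The windows of Ldha and Ldhb, whose shares did not overlap between the groups, and of Hk2, the member that rose, were chosen as examples with values and matches known and are shown 5′ to 3′ on the strand of the gene with the matches in capitals, and for Ldha the more upstream of 2 starts was taken.
Ldha: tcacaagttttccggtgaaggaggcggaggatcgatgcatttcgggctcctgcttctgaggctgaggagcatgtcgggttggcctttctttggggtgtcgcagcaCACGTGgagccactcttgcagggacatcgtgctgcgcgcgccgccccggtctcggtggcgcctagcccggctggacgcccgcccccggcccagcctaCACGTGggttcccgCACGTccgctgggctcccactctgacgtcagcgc
Ldhb: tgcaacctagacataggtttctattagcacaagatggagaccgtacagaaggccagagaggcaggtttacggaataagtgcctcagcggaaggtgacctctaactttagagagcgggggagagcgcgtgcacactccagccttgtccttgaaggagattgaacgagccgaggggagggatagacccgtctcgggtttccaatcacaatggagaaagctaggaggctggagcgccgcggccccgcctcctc
Hk2: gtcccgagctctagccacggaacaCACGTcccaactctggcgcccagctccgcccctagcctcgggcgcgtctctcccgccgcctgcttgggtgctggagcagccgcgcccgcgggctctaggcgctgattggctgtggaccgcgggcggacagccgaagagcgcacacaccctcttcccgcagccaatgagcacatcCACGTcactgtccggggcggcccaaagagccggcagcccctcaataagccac
The Ldha window (chr7:46845554-46845803, plus strand) holds 5 matches in 3 stretches, since CACGTG reads as a match on both strands, while the window of the other Ldha start (chr7:46846832-46847081) holds none. The Hk2 window (chr6:82774455-82774704, minus strand) holds 2, and the Ldhb window (chr6:142507958-142508207, minus strand) holds none, as do both windows of Hk1 and of Aldoc. Pgam1, which was lower in PAP without passing, has 1 match, and so have 2 of the 3 windows of Aldoa. All 32 members were found in the RefSeq table, and 19 of them (59.4%) had a match in at least 1 window, beside 19.96% of 17492 protein-coding genes. Taken by window, 23 of 47 windows of members held a match (48.9%), beside 17.8% of the windows of protein-coding genes and 16.6% of all windows. The members with a match included Aldoa, Pygb and Ugp2, which fell, and Slc16a1 and Pfkfb3, which were not called, and those without one included Aldoc, Eno1 and Ldhb, which also fell. The windows of members were also richer in G and C, at a median of 60.4% against 55.6%, and the part of this in the count of matches was not tested.

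Lactate leaves cells through Slc16a1 (MCT1) and Slc16a3 (MCT4). Slc16a1 held 87.5, 63.9 and 40.8 CPM in Astro and 148, 0 and 0.33 CPM in PAP, which is 290, 0 and 1 counts. The PAP signal thus came from animal 1 alone, and the log2 fold change of -0.38 ± 2.05 did not pass (edgeR adjusted p = 0.937). Without the PAP library of animal 1 both PAP libraries left were under the floor, at least 41.4-fold below Astro. That library was left out because it alone exceeded the floor, so the bound describes the other libraries and tests nothing. Slc16a3 had 7, 5 and 11 counts in Astro and 0, 4 and 0 in PAP, was left out by the filter on low counts, and could not be compared at this depth.

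**Figure D3:**
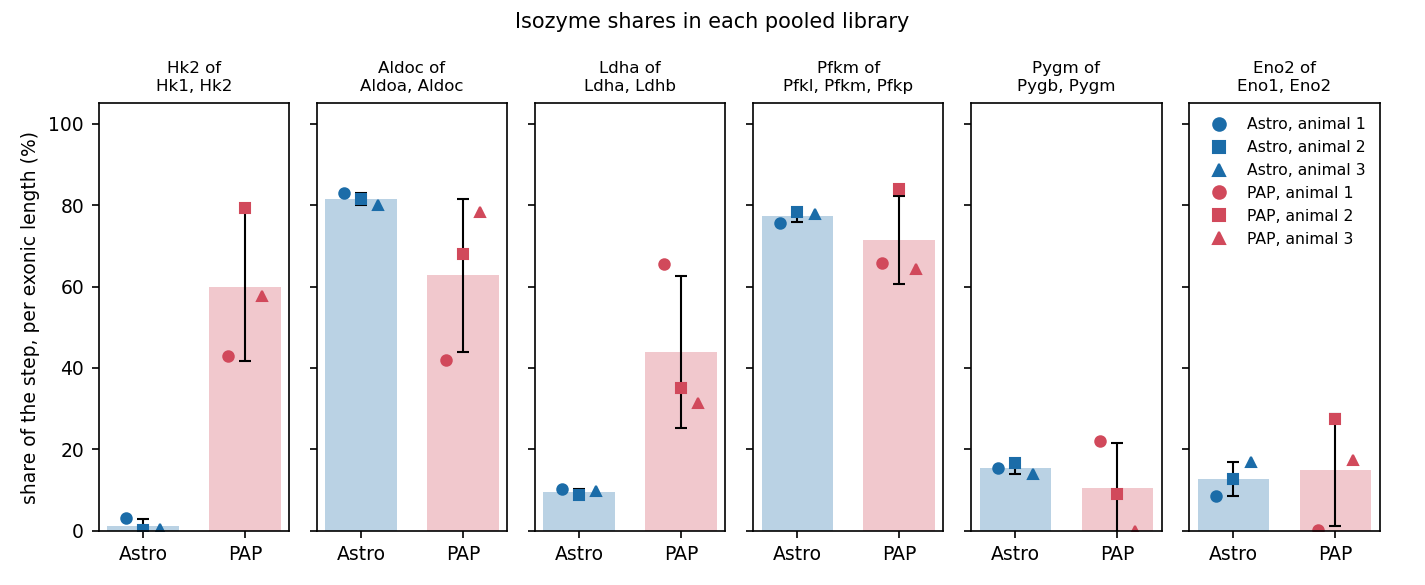
Share of 1 isozyme among the isozymes of its step, in percent per exonic length, for 6 steps; bars are means, whiskers SD over 3 animals, and points single libraries. The shares of Hk2 and Ldha lie higher in every PAP library than in any Astro library and that of Aldoc lower, while those of Pfkm, Pygm and Eno2 overlap.

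On the glycogen side, Pygb and Ugp2 fell and the other members did not pass with all libraries. Pygb, the brain form of glycogen phosphorylase, which releases glucose phosphate from glycogen (chr2:150786735-150831758), held 808, 650.1 and 831 CPM in Astro and 245, 363 and 192 CPM in PAP. The groups did not overlap, with a log2 fold change of -1.51 ± 0.31 or 2.86-fold lower (edgeR adjusted p = 0.0210, and 0.206 with the block). The muscle form Pygm was also lower throughout, at 86.7 to 98.3 CPM in Astro and 46.4, 24.2 and 0 CPM in PAP, without passing (edgeR adjusted p = 0.479).

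Ugp2, which makes the UDP-glucose that glycogen synthase uses (chr11:21321138-21371201), held 1004, 816 and 897 CPM in Astro and 146, 138 and 301 CPM in PAP. All PAP libraries were far below Astro, with a log2 fold change of -2.21 ± 0.38 or 4.64-fold lower (edgeR adjusted p = 0.0208, and 0.108 with the block, the smallest blocked value among the members). The other genes of synthesis were the synthase Gys1, the branching enzyme Gbe1, the primer glycogenin (Gyg) and the phosphoglucomutases Pgm1 (ENSMUSG00000025791) and Pgm2 (ENSMUSG00000029171), 2 symbols that older annotations exchange. None of these 5 passed with all libraries. Pgm1 was lower throughout, at 151 to 185 CPM in Astro and 16.8, 99.5 and 52.5 CPM in PAP, and passed without the PAP library of animal 2 (edgeR adjusted p = 0.0458). Gys1 had 72, 0 and 1 counts in PAP, Gbe1 44, 295 and 0, Pgm2 0, 69 and 0, and Gyg 58, 4 and 386, so that each was carried by 1 or 2 animals and not by the same ones. Without the 1 PAP library that carried it, Gys1 was at least 34.0-fold lower (edgeR adjusted p = 0.0217) and Pgm2 at least 11.1-fold lower (0.0227).

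The targeting subunits, which bring protein phosphatase 1 to glycogen and so favour its storage, had most of their PAP reads in animal 3. Ppp1r3c (PTG) held 323, 278 and 251 CPM in Astro and 29.1, 0 and 211 CPM in PAP, lower in every PAP library but spread from no read to near the Astro level (log2 fold change -1.82 ± 1.59, edgeR adjusted p = 0.534). Ppp1r3d had 931, 536 and 1039 counts in Astro and 0, 0 and 281 in PAP, so animal 3 alone carried the PAP reads of this gene. Without that library, left out for that reason, Ppp1r3d was at least 28.9-fold lower, a bound that tests nothing.

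A wider list of 59 pathway genes was examined beside the members, of which 44 were tested. Of these, 2 rose (4.5%, beside 5.92% of all genes tested) and 7 fell (15.9%, beside 15.4%). With the block, 1 was called, beside 0.91% of all genes. Leaving out any 1 Astro library also left 1 higher and none lower, beside 115 of 12938, 128 of 12893 and 140 of 12851 genes called in either direction. Without the PAP library of animal 3 there were 4 higher and 13 lower, beside 1251 and 3335 of 16523 genes. Without that of animal 2 there were 11 lower, beside 2929 of 16431 genes. The gene with the smallest adjusted p was Pgam2, the phosphoglycerate mutase of muscle (chr11:5801640-5803733). It had 108, 107 and 127 counts in Astro and 957, 633 and 936 counts in PAP, although the PAP libraries were far shallower, which is 5.80, 6.28 and 6.45 CPM against 488, 326 and 309 CPM. Both groups were narrow and far apart. The log2 fold change was 5.92 ± 0.40, or 60.5-fold higher, with an edgeR adjusted p of 0.00211 and 0.0169 with the block. It passed in all 16 alternatives, with log2 fold changes of 5.64 to 6.13.

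A share of Pgam2 among both mutases was computed after its values were seen. With the lower Pgam1 level, Pgam2 made up 12.3%, 15.6% and 13.8% of that pair per length in Astro and 95.6%, 96.6% and 94.0% in PAP. No gene in the annotation outside its locus matched the Pgam2 transcript at 95% identity over 100 bases, and none overlapped its exons. Another muscle form, Eno3 of enolase, named here after its values were seen, held 4.84, 5.11 and 6.14 CPM in Astro and 115, 130.4 and 6.94 CPM in PAP. It was high in PAP animals 1 and 2 and near the Astro level in animal 3, with a log2 fold change of 3.97 ± 1.15 that did not pass (edgeR adjusted p = 0.0547). Eno3 passed in 3 of 16 alternatives, which were without the PAP library of animal 3, technical replicates 5 to 8 alone, and DESeq2. Of the 8 plasma cell genes 5 also rose in these libraries and Ighm fell. Jchain, the joining chain of antibodies, was at 10.97 to 20.4 CPM in Astro and 2515, 1202 and 1098 CPM in PAP (log2 fold change 6.67, edgeR adjusted p = 0.00248, and 0.0151 with the block). Their part in the levels of Pgam2, Eno3 and Hk2 was not tested.

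**Figure D4:**
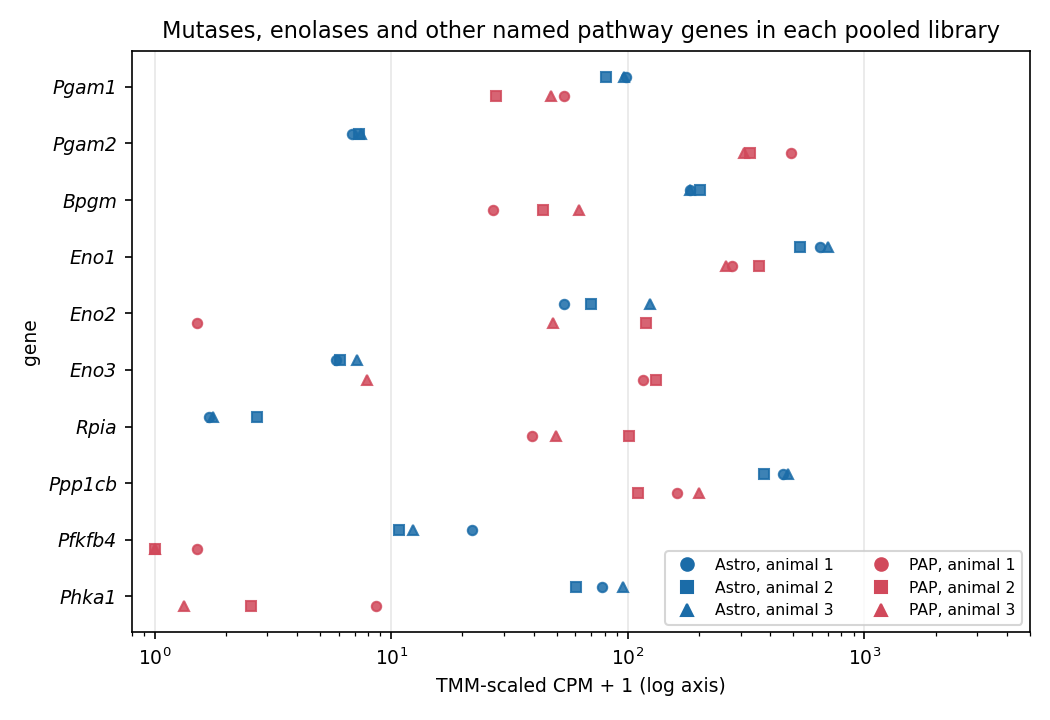
TMM-scaled CPM plus 1, on a log axis, of the mutases, the enolases and the other named genes of the wider pathway list in each pooled library, with Astro in blue and PAP in red. Pgam2 stands at 5.80 to 6.45 CPM in Astro and 309 to 488 CPM in PAP, while Pgam1 lies lower in PAP.

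Rpia, the ribose phosphate isomerase of the pentose phosphate branch, had 13, 29 and 15 counts in Astro and 75, 194 and 147 counts in PAP. At 0.70 to 1.70 CPM against 38.3 CPM or more the groups did not overlap, and its log2 fold change of 5.87 ± 0.95 passed (edgeR adjusted p = 0.0208) but not with the block (0.201). Of the 8 genes of that branch, all tested, it was the only one called (12.5% higher and 0.0% lower, beside 5.92% and 15.4% of all genes tested).

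Of the 7 genes of the wider list that fell, 4 held at least 10 CPM on average in a compartment. Bpgm, which makes and removes bisphosphoglycerate, held 182, 200.1 and 183 CPM in Astro and 26.0, 42.8 and 61.5 CPM in PAP (log2 fold change -2.12 ± 0.46, edgeR adjusted p = 0.0222, and 0.206 with the block). Ppp1cb, a catalytic subunit of protein phosphatase 1, held 449.8, 377 and 476 CPM in Astro and 160.2, 109.8 and 199.6 CPM in PAP (log2 fold change -1.47 ± 0.32, edgeR adjusted p = 0.0228, and 0.206 with the block). In both genes the groups were well separated. Phka1, a regulatory subunit of phosphorylase kinase, which switches glycogen phosphorylase on, had 1431, 1011 and 1853 counts in Astro and 15, 3 and 1 in PAP (log2 fold change -4.61 ± 1.23, edgeR adjusted p = 0.0418, and 0.206 with the block). Phka1 passed in 6 of 16 alternatives, and not without the PAP library of animal 2. Pfkfb4, a relative of Pfkfb3, had 389, 167 and 224 counts in Astro and 1, 0 and 0 in PAP, at least 9.07-fold lower against the highest floor of 3 counts among the PAP libraries, 1.55 CPM (edgeR adjusted p = 0.0257, and 0.206 with the block). The remaining called genes of the list had no read in PAP, where Slc2a10 and Epm2a were at least 3.66-fold and 3.41-fold lower by the same floor. Stbd1 held 1.12 to 1.45 CPM in Astro, under the highest PAP floor of 1.55 CPM, so its call gives no bound.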

How the data were processed

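The deposited files give raw gene counts for 48 samples, whole numbers with no scaling, per the file headers and values. Per the submitters' processing notes, the tools included bcl2fastq 2.18.0.12, Trim Galore 0.4.1, STAR 2.5.2b, SAMtools and HTSeq 0.5.3, on build mm10. Per the labels' protocols, RNA was amplified with a SMART-Seq v4 kit and libraries made with Nextera XT. The strand setting is not given in the sources used here, so reads of overlapping and antisense genes cannot be told apart, and without molecular identifiers floors cover counting error only. Symbols, coordinates and exonic lengths came from GENCODE M21 on GRCm38.

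The 8 technical replicates of a sample had a dispersion index (1 for pure counting noise) of 1.01 to 1.04 within replicates 1 to 4 and within 5 to 8, and of 1.09 to 1.43 over all 8, so that these sets differed beyond counting noise; all 8 were summed, giving n = 3 animals per compartment. The quasi-likelihood test of edgeR 4.0.16 (R 4.3.3) was run on every gene that filterByExpr kept at a minimum count of 10. Libraries were scaled by TMM, the model held compartment alone, and p-values were adjusted over all genes (Benjamini-Hochberg, threshold 0.05). The labels name the animal of each sample (C1 to C3, each with both compartments), which is where the pairing comes from. Their deviations from the group means correlated at 0.033, 0.018 and -0.027, and the fit with the animal as a block is given where it changes a call. Levels of different genes were compared per exonic length. Near-identical genes were searched with blastn.

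Members and lists were chosen with earlier results of these data known. Values are given for every called member, the most abundant member of each step, and genes of the wider list that were called and held at least 10 CPM on average in a compartment. Other members are given by counts or range, with Ldha and Eno3 added after their values were seen.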

Additional observations from a re-analysis of the deposited data

How the results depend on the processing

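Against 1 member called higher and 6 lower in PAP, the fit with the replicate block gave 0 and 0, DESeq2's Wald test 2 and 10, voom with a variance weight per compartment 0 and 2, a mean of at least 100 counts 0 and 3, and equal depth 0 and 3. Voom kept Aldoc and Ldhb, while the filter at 100 counts and equal depth each kept Ugp2, Ldhb and Pygb. No filter on low counts, and technical replicates 5 to 8 alone, each gave 0 called higher. Of the wider list, against 2 higher and 7 lower, the block gave 1 and 0, DESeq2 16 lower, a mean of at least 100 counts 1 and 3, and equal depth 3 lower. Leaving out 1 library at a time gave 0 to 1 members higher and 0 to 9 lower, and 1 to 4 wider genes higher and 0 to 13 lower, where each missing Astro library gave the lowest counts. Hk2 and Aldoc were also lost without the PAP library of animal 2. The cause was not tested. The median log2 fold change of the members was -1.54 with the block and -1.65 with voom, beside -1.63 and -1.62 over all genes, and ran from -1.03 to -0.87 with 1 library left out, while that of all genes ran from -0.95 to -0.37. Among all genes 3115 were called without the block, 133 with it, 5141 by DESeq2, 2120 without a filter, 1414 at 100 counts and 1688 at equal depth. The 7 called members and 6 named wider genes that were called kept their sign in every alternative that tested them, 15 for Hk2 and Rpia and 16 for the others. Slc16a1, not called, turned to 0.15 and 0.14 on the log2 scale without PAP animal 2 and 3. A member with no read in a PAP library was undetectable there below 0.991 to 1.55 CPM.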
